A study of Rattus norvegicus with 10 samples.

Results

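The trigeminal ganglion (TG), which houses the cell bodies of the sensory neurons of the face and mouth, was profiled on arrays from rats with and without oral ulcerative mucositis (OUM), and the results below concern 9 genes of the anterior pituitary: *Gh1*, *Prl*, *Pomc*, *Cga*, *Lhb*, *Tshb*, *Fshb*, *Pou1f1* and *Ghrhr*. These genes were chosen after earlier results of the same arrays had shown their signals to vary widely between rats, so their levels and their differences between the groups are given as a description, without a test. All 9 had a probe, 11 probes in all, out of 30367 probes on each array, and 6 of the 9 (*Gh1*, *Prl*, *Pomc*, *Cga*, *Lhb* and *Pou1f1*) were bright enough to enter the comparison over 19271 features. The remaining 3 (*Tshb*, *Fshb* and *Ghrhr*) were below that limit and are described by their values alone. *Prl* entered only through the OUM group, since its probe was not well above background on 1 naive array.

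Both groups were male Wistar rats with no genetic modification named in the labels, 5 rats each, and both were anesthetized with sodium pentobarbital. In the OUM group, filter paper wetted with 50% acetic acid was held against the labial fornix of the lower incisors for 30 s, and the naive rats had the anesthesia alone. TGs of both sides were removed on day 2, after saline perfusion, and the total RNA of each rat was hybridised to 1 single-colour Agilent array, so that n is the number of rats. The ulcer was chemical, the naive rats had no sham application of filter paper, and each sample was whole ganglion tissue with all its cell types.

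The anterior pituitary holds hormone cells that are defined by what they secrete. Somatotrophs make growth hormone (*Gh1*), lactotrophs prolactin (*Prl*), corticotrophs the precursor of corticotropin (*Pomc*), and gonadotrophs and thyrotrophs make glycoprotein hormones, each a dimer of the common alpha subunit (*Cga*) with its own beta subunit (*Lhb*, *Fshb* or *Tshb*). The POU factor *Pou1f1* drives the somatotroph, lactotroph and thyrotroph lineages, and *Ghrhr* is the receptor through which the hypothalamus drives growth hormone release. In the rat, the gland lies on the floor of the skull between the left and right TGs.

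Promoter sequences in RefSeq (GRCr8 assembly) were matched for 6 of the 9 genes, *Prl*, *Pomc*, *Cga*, *Lhb*, *Tshb* and *Ghrhr*; *Gh1*, *Fshb* and *Pou1f1* had no entry. The 4 printed here are the 250 bases before the annotated start of *Prl*, *Pomc* and *Cga*, whose signals differed widely between arrays, and of *Lhb*, whose range was smaller. Capitals mark matches on either strand to a POU1F1 motif (ATGNATA), to an SF-1 motif (AAGGTCA) or to the TATA letters (TATAAA), none of which overlap.
Prl, chr17:38298218-38298467, minus strand: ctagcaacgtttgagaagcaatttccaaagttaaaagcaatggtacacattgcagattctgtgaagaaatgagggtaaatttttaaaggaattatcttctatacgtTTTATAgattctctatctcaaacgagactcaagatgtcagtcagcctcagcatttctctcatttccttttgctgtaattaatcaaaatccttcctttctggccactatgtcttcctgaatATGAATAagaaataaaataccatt
Pomc, chr6:32659103-32659352, plus strand: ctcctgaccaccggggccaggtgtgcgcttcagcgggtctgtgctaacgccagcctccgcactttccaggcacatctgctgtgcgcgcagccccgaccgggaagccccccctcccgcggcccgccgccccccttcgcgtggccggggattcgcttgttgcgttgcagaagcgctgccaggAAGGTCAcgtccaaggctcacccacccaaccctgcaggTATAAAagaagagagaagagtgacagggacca
Cga, chr5:54283090-54283339, plus strand: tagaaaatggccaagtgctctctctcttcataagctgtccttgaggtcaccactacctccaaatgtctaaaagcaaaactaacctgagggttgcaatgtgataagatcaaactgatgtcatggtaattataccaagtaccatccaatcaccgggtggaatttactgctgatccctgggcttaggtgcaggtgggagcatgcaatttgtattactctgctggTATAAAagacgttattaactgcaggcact
Lhb, the first of 2 annotated starts, chr1:105037207-105037456, plus strand: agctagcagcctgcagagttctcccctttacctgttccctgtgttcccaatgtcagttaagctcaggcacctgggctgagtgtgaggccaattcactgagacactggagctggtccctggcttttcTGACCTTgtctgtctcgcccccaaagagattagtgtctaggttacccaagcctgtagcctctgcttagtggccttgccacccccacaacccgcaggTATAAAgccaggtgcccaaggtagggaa
*Prl* was the only one of the 6 genes with a POU1F1 match, 24 to 18 bases before its start, and such a match was in 8.73% of 33465 rat promoters of the same length. The SF-1 letters, the site of the steroidogenic factor of gonadotrophs, were in *Lhb* (124 to 118 bases before the first start, minus strand) and in *Pomc* (70 to 64 bases), against 3.99% of all promoters. TATA letters on the plus strand lay 32 to 27 bases before the start of *Pomc*, 29 to 24 before that of *Cga*, 28 to 23 before the first start of *Lhb* and 23 to 18 before that of *Tshb*, while *Prl* held them on the minus strand alone, 144 to 139 bases before its start. In all, 12.9% of promoters held them on either strand. Neither the PITX1 letters (TAATCC, in 6.34% of promoters) nor the T-box letters (TCACACC, in 3.22%) were found in these windows. No motif searched was in all 6 promoters.

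Every level below is the log2 of the processed signal minus the log2 of the 75th percentile of the same array, so that 0 is the brightness of the 75th percentile spot and a difference of 1 is a factor of 2. Levels were compared between arrays for a gene, never between genes. A bulk sample cannot tell fewer cells of a type from less RNA in each cell. On the 10 arrays, 70.9% to 77.2% of probes were well above background, at most 1 gene spot of an array was saturated, and none of the members' spots was. The arrays lay on 2 slides, 4 naive and 3 OUM on slide 1 and naive 4, OUM 4 and OUM 5 on slide 2. Markers of sensory neurons (such as *Prph*, *Calca* and *Trpv1*) were well above background on all arrays for 9 of 9 genes with a probe, with a summed level that ranged only 1.18-fold.

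The signal of the growth hormone gene differed widely between rats of the same group, over a log2 range of 6.75 among naive and 5.81 among OUM rats. *Gh1* stood at 2.43, -4.32, 0.47, -2.71 and -0.82 on naive arrays 1 to 5, and at 2.34, 2.62, -2.05, -3.19 and 1.20 on OUM arrays 1 to 5. Naive 1, OUM 1 and OUM 2 were the 3 highest arrays, naive 2 was the lowest, and the groups overlapped over most of their range. Across both groups, the highest array (OUM 2) was 123-fold above the lowest (naive 2). The group means were -0.99 ± 2.64 and 0.18 ± 2.65 (SD, n = 5 each), a log2 difference (OUM minus naive) of 1.17 with a limma SE of 1.49. That difference was 0.34 without naive 2 and 2.03 without naive 1.

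*Prl*, the hormone of lactotrophs, had the widest range of the 19271 features tested. Its levels were 0.75, -8.31, -2.33, -3.87 and -4.13 on naive arrays 1 to 5 and 0.26, 0.88, -2.51, -5.65 and -2.17 on the OUM arrays. The same 3 arrays were highest and naive 2 was again the lowest, where the probe was not well above background. OUM 2 was 506-fold above the dimmest signal well above background on naive 2. That signal is not the detection limit of this probe, so the fold between the 2 arrays is uncertain. The means were -3.58 ± 3.28 in naive and -1.84 ± 2.59 in OUM rats, a log2 difference of 1.74 with an SE of 1.67. It was 0.56 without naive 2, the array on which the probe was not well above background, and 2.82 without naive 1. On slide 1 the difference was 3.05, and on slide 2 it was -0.04.

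*Pomc*, which corticotrophs cleave to corticotropin and which other cells can also express, had the largest log2 difference between the group means of the 9 genes. It stood at 3.79, -2.13, -1.51, -1.91 and -0.87 on naive arrays 1 to 5, and at 3.62, 4.08, -0.84, 1.56 and 1.36 on OUM arrays 1 to 5. Naive arrays 2 to 5 were low, at -0.87 or less, and all 5 OUM arrays lay at -0.84 or more, while naive 1 was as high as the highest OUM arrays, so the groups overlapped through 1 naive array. The means were -0.53 ± 2.46 and 1.96 ± 1.98, which differed by 2.48 on the log2 scale with an SE of 1.25. Without naive 1 the difference was 3.56, and without OUM 2 it was 1.95. On slide 1 it was 2.47 and on slide 2, with 1 naive array, 3.37.

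**Figure D1:**
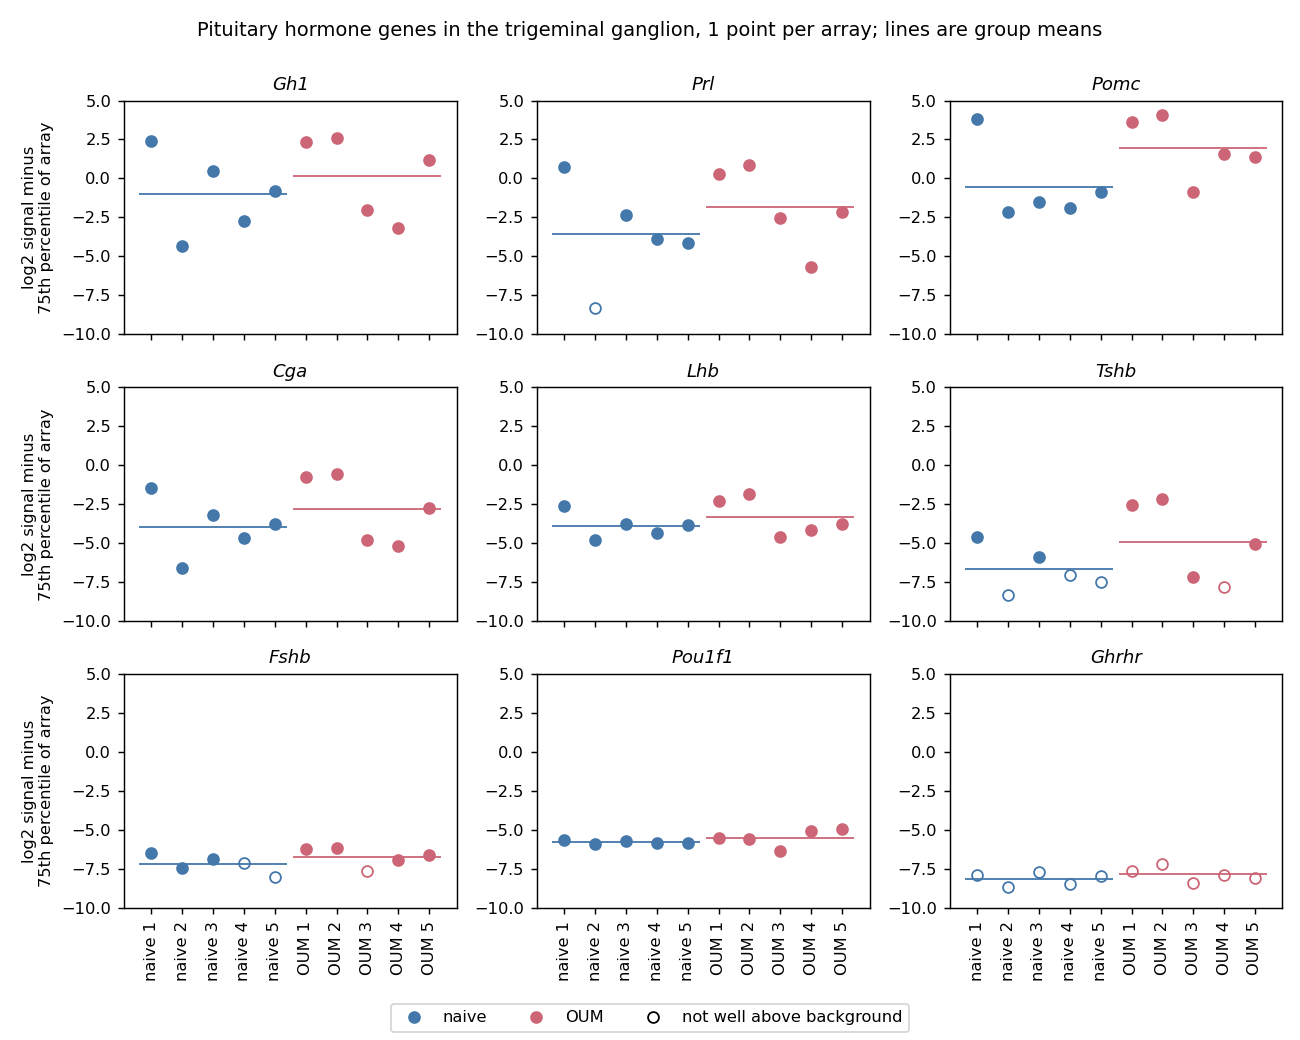
Level of the 9 pituitary genes on each array (y axis, log2 of the signal minus the 75th percentile of the array; x axis, the 5 naive and 5 OUM arrays), with the same y axis in every panel. Filled points are well above background, open points are not, and lines are group means. In the panels of *Gh1*, *Prl*, *Pomc*, *Cga*, *Lhb* and *Tshb*, naive 1, OUM 1 and OUM 2 are the highest points.

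The glycoprotein hormone genes followed *Gh1* from array to array, over different ranges. *Cga*, the common alpha subunit, stood at -1.45, -6.61, -3.20, -4.69 and -3.78 on naive arrays 1 to 5 and at -0.76, -0.53, -4.76, -5.14 and -2.76 on the OUM arrays, 67.8-fold from lowest to highest. Naive 1, OUM 1 and OUM 2 were high and naive 2 was lowest, with the other arrays of both groups interleaved. The means, -3.94 ± 1.90 and -2.79 ± 2.16, differed by 1.15 (SE 1.15, log2), by 0.49 without naive 2 and by 1.78 without naive 1.

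*Lhb*, the beta subunit of luteinizing hormone, moved in nearly the same order over a smaller range. Its levels were -2.63, -4.82, -3.78, -4.34 and -3.86 on naive arrays 1 to 5 and -2.26, -1.85, -4.59, -4.15 and -3.79 on OUM arrays 1 to 5, 7.84-fold from lowest to highest. Outside the 3 high arrays, naive and OUM levels interleaved between -4.82 and -3.78. The means were -3.88 ± 0.81 and -3.33 ± 1.21, a log2 difference of 0.56 with an SE of 0.58, which was 0.19 without OUM 2 and 0.87 without OUM 3.

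*Tshb*, the beta subunit of thyrotropin, was well above background on 2 naive and 4 OUM arrays. Its levels were -4.62, -8.33, -5.89, -7.01 and -7.46 on naive arrays 1 to 5 and -2.55, -2.13, -7.17, -7.83 and -5.03 on OUM arrays 1 to 5. OUM 2 was 62.8-fold above the dimmest signal well above background on naive 2. The *Tshb* probe itself was not well above background there, so this fold is not a lower limit. Naive 1 was well below OUM 1, whereas for *Gh1*, *Prl* and *Pomc* it was slightly above OUM 1. Between the group means, -6.66 ± 1.44 and -4.94 ± 2.59, the log2 difference was 1.72 with an SE of 1.33, from the spread of this gene alone.

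*Fshb*, the beta subunit of follicle-stimulating hormone, was well above background on 3 naive and 4 OUM arrays and kept to a narrow range. It stood at -6.48, -7.41, -6.87, -7.12 and -7.98 on naive arrays 1 to 5 and at -6.21, -6.16, -7.65, -6.91 and -6.61 on the OUM arrays. The 3 highest arrays were the same as for *Gh1*, and the lowest was naive 5, not naive 2. The means, -7.17 ± 0.56 and -6.71 ± 0.61, differed by 0.46 (SE 0.37, log2).

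The transcription factor and the receptor varied less. The brighter of the *Pou1f1* probes was well above background on all 10 arrays, with levels of -5.65, -5.91, -5.68, -5.82 and -5.83 on naive arrays 1 to 5 and -5.47, -5.55, -6.34, -5.09 and -4.95 on the OUM arrays. The naive arrays lay within 0.26 of each other on the log2 scale, and the OUM arrays spread over 1.39, with OUM 5 and OUM 4 highest and OUM 3 lowest, an order unlike that of the hormones. The means were -5.78 ± 0.11 and -5.48 ± 0.54, a log2 difference of 0.30 with an SE of 0.22, which was -0.02 on slide 1 and 0.81 on slide 2. With 1 array left out it lay between 0.17 (without OUM 5) and 0.51 (without OUM 3).

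The second *Pou1f1* probe did not follow the first. It was well above background on 1 array, OUM 1, and its levels ran from -9.30 on naive 3 to -7.30 on OUM 2. Its 3 highest arrays were OUM 2, OUM 1 and naive 1, as for the hormones, but at signals at or near background.

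*Ghrhr* was not well above background on any array with either probe. Levels of its brighter probe ran from -8.62 to -7.67 on the naive arrays and from -8.38 to -7.15 on the OUM arrays, without separation of the groups. A level of this receptor was thus not detectable on these arrays.

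Read across genes, 7 of the 9 members had naive 1, OUM 1 and OUM 2 as their 3 highest arrays, 8 were highest on OUM 2 and 7 were lowest on naive 2 (counts over the probe of higher mean signal). The last 2 counts include *Ghrhr*, which was not well above background on any array, and the count for naive 2 includes *Prl* and *Tshb*, which were not well above background there. The mean level of the 5 genes well above background on all 10 arrays (*Gh1*, *Pomc*, *Cga*, *Lhb* and *Pou1f1*, each centred on its mean) was 1.76, -2.30, -0.28, -1.44 and -0.57 on naive arrays 1 to 5 and 1.95, 2.21, -1.26, -0.74 and 0.67 on OUM arrays 1 to 5. The spread from lowest to highest array was 4.05 among naive rats and 3.47 among OUM rats, and the group means were -0.57 ± 1.52 and 0.57 ± 1.56. The spread within each group was thus larger than the distance between their means. Without naive 1 the naive spread was 2.02.

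**Figure D2:**
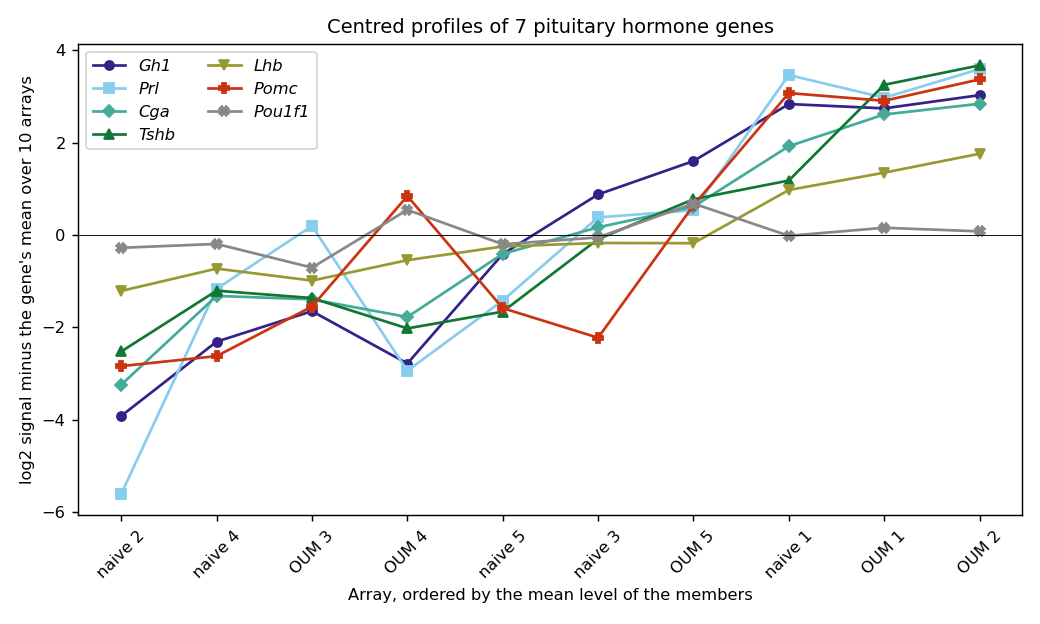
Level of 7 members minus the mean of the gene over the 10 arrays (y axis, log2) on each array (x axis, ordered by the mean level of the 5 members that were well above background throughout). All lines but that of *Pou1f1* are highest on naive 1, OUM 1 and OUM 2, *Lhb* with a smaller rise, while the line of *Pou1f1* stays within 0.71 of 0.

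The hormone genes did not keep a fixed ratio to each other. *Cga* stayed closest to *Gh1*, with a root-mean-square distance of 0.70 between their centred log2 levels over the 10 arrays and differences between -0.99 and 1.01. *Prl* was 1.04 from *Gh1*, and *Pomc* was 1.63 from it. The distance of *Lhb* from *Gh1* was also 1.63, with a log2 range of 2.97 for *Lhb* against 6.94 for *Gh1* and nearly the same order of arrays.

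*Pomc* departed most from *Gh1* on OUM 4 and naive 3. On OUM 4 the difference between the centred log2 levels of *Pomc* and *Gh1* was 3.63, and this array ranked 4 of 10 for *Pomc* and 9 for *Gh1*, *Prl* and *Cga*. On naive 3 the difference was -3.10, and the array ranked 8 for *Pomc* and 5 for *Gh1*, *Prl* and *Cga*. The same differences from *Gh1* for *Lhb*, *Cga* and *Prl* were 2.24, 1.01 and -0.16 on OUM 4. They were -1.05, -0.71 and -0.50 on naive 3. For *Pomc*, the difference lay between 0.10 and 0.34 on naive 1, OUM 1, OUM 2 and OUM 3, and was -0.31 on naive 4. Arrays of high and of low signal were thus among those near the common ratio. On naive 2, naive 5 and OUM 5 the difference for *Pomc* was 1.08, -1.17 and -0.96. For no other member did 4 naive arrays lie below all 5 OUM arrays. For *Pomc* this rested on a small gap, -0.87 on naive 5 against -0.84 on OUM 3. No share over all features is given for this pattern.

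**Figure D3:**
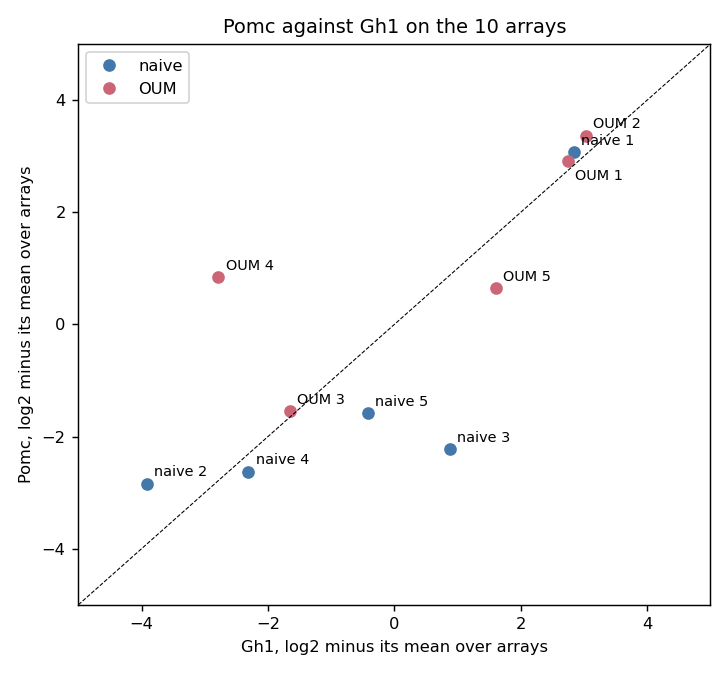
*Pomc* (y axis) against *Gh1* (x axis), each as log2 level minus its mean over the 10 arrays, with 1 point per array and a dashed line of equal departure. Naive 1, OUM 1 and OUM 2 lie together at the upper right, OUM 4 lies 3.63 above the line and naive 3 lies below it, at a difference of -3.10.

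For OUM against naive, the means of all 9 members were higher in OUM rats, and the groups overlapped in all 9. Over all features, 45.2% had a higher OUM mean, and 1.8% had groups that did not overlap (346 features). The median log2 difference was 1.16 over the 6 members tested and -0.01 over all features. The members rise and fall together on the same rats, so 9 genes with 1 sign are not 9 observations. In the limma fit 2 features (0.0104%) passed an adjusted p of 0.05, *Alkal2* and *Xkr6*, which were named after their values were seen. Since the members were selected on these arrays, no p-value is given for them. The mean difference over the 6 members was 1.23, which fell to 0.68 without naive 2 and rose to 1.90 without naive 1; within slides it was 1.61 on slide 1 and 1.16 on slide 2.

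**Figure D4:**
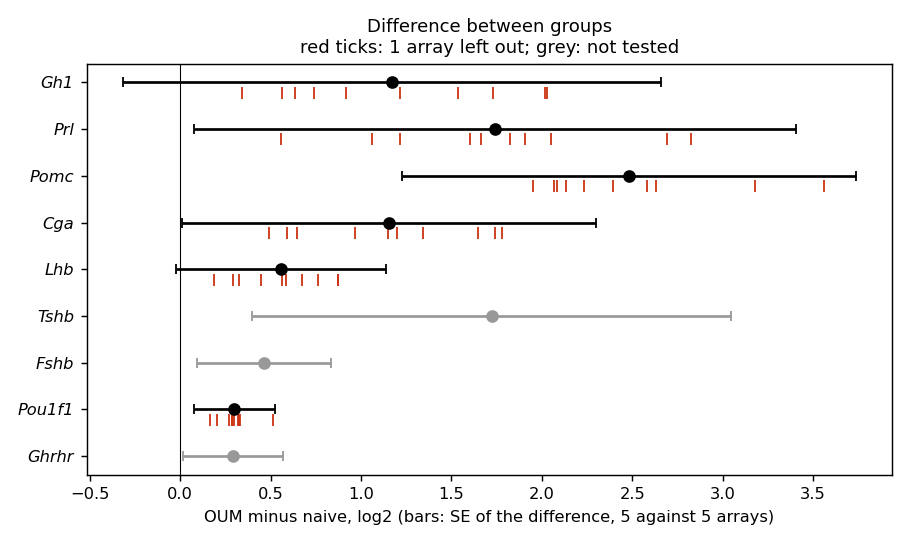
Difference between group means of each member (x axis, OUM minus naive, log2; 5 against 5 arrays). Points are the differences and bars their SE, from limma for the 6 genes tested (black) and from the spread of the gene alone for the other 3 (grey); red ticks are the differences with 1 array left out. All points lie above 0, and the bars of *Gh1* and *Lhb* reach below 0.

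To set the hormones beside the rest of the pituitary program, 57 further genes in 5 lists were examined, of which 51 had a probe and 29 could be tested. Of these, 4 (*Gata2*, *Nr0b1*, *Prlr* and *Fshr*) were well above background on all OUM arrays but not on all naive arrays, and so entered through the OUM group alone. None passed an adjusted p of 0.05 in either direction (0.0104% of all features did). At an unadjusted p under 0.05, 2 were higher in OUM rats (*Gata2* and *Agrp*) and 0 lower, against 8.76% of all features, and the methods' t-test had 1 at that limit (*Gata2*), against 8.22%. Their median log2 difference was 0.03, and their median range over the arrays was 0.51, against 0.40 for all features. *Cga*, *Pomc*, *Gh1* and *Prl* ranged over 6.08 to 9.20, *Lhb* over 2.97 and *Pou1f1* over 1.39, while *Crh* of the lists reached 3.03. The members were chosen for their wide variation on these arrays, so a wider range than that of the lists is a description alone. The 44 features with a range over 4 included *Cga*, *Pomc*, *Gh1* and *Prl*.

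Of the 14 lineage factors of the gland, 11 had a probe. Most of these were dim, with 4 tested and 6 not well above background on any array. *Gata2*, a factor of thyrotrophs and gonadotrophs that other tissues also use, had a log2 difference of 0.28 (well above background on 4 naive and 5 OUM arrays, SE 0.10, adjusted p = 0.52). *Lhx4*, a factor of early pituitary growth, had the widest range of them, 1.11, and was highest on OUM 5 and lowest on naive 3 rather than in the order of the hormones. *Nr0b1* differed by -0.01 (SE 0.13).

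Of the receptors through which hypothalamic and feedback signals reach pituitary cells, 5 of 11 were tested. *Sstr5* and *Sstr2*, somatostatin receptors, had log2 differences of 0.25 (SE 0.18) and 0.20 (SE 0.11), with adjusted p of 0.70 and 0.65. *Trhr*, the receptor for thyrotropin-releasing hormone, had a range of 0.93 and a difference of -0.02 (SE 0.19). *Gnrhr*, the gonadotropin-releasing hormone receptor of gonadotrophs, was well above background on no array and is named here after its values were seen. It stood at -7.04, -7.37 and -6.83 on naive 1, OUM 1 and OUM 2 and between -9.12 and -8.30 on the other 7 arrays. *Ghsr* and *Crhr1*, also untested and named after their values were seen, did not share this order. *Ghsr* was lowest on naive 1 (-8.52). *Crhr1* stood at -8.18, -8.13 and -7.97 on the same 3 arrays and was highest on OUM 4 (-7.38).

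Genes of prohormone processing and secretory granules, which neurons and pituitary cells share, were all well above background on all arrays (9 of 9) and hardly varied. *Scg5*, a granule chaperone, had a log2 difference of -0.12 (SE 0.07, adjusted p = 0.66), *Pam*, which amidates peptides, -0.10 (SE 0.07, adjusted p = 0.70) and *Pcsk1*, a convertase that cleaves proopiomelanocortin, -0.10 (SE 0.12, adjusted p = 0.85). *Chgb* had a difference of -0.06 (SE 0.11). The widest range among the 9 was 0.62, that of *Pcsk1*.

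Of the hypothalamic factors and posterior lobe genes, 8 of 13 were tested. *Crh*, the corticotropin-releasing hormone that drives *Pomc* cells, had the widest range of the list, 3.03, with levels of -4.48, -4.91, -5.30, -6.54 and -3.91 on naive arrays 1 to 5 and -4.38, -4.09, -4.78, -3.51 and -3.90 on the OUM arrays. It was lowest on naive 4 and highest on OUM 4, not on the 3 arrays with the highest signal of the pituitary hormone genes. Its log2 difference of 0.89 (SE 0.44) had an adjusted p of 0.59. On slide 2 alone the difference was 2.83, a value that rests on naive 4, the only naive array there and the lowest of all 10. *Ghrh*, the growth hormone releasing hormone, differed by 0.22 (SE 0.15), and *Sst*, somatostatin, a peptide of some sensory neurons too, by 0.09 (SE 0.21, range 1.15). *Agrp*, named after its values were seen, had a difference of 0.18 (SE 0.08, adjusted p = 0.57).

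Of the receptors by which a tissue responds to pituitary hormones, 3 of 10 were tested and 4 were not well above background on any array. *Fshr*, for follicle-stimulating hormone, differed by 0.15 (well above background on 3 naive and 5 OUM arrays, SE 0.07, adjusted p = 0.59), *Ghr*, for growth hormone, by -0.12 (SE 0.07, adjusted p = 0.64) and *Prlr*, for prolactin, by 0.04 (SE 0.08, adjusted p = 0.91). Their ranges were 0.38, 0.47 and 0.43.

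**Figure D5:**
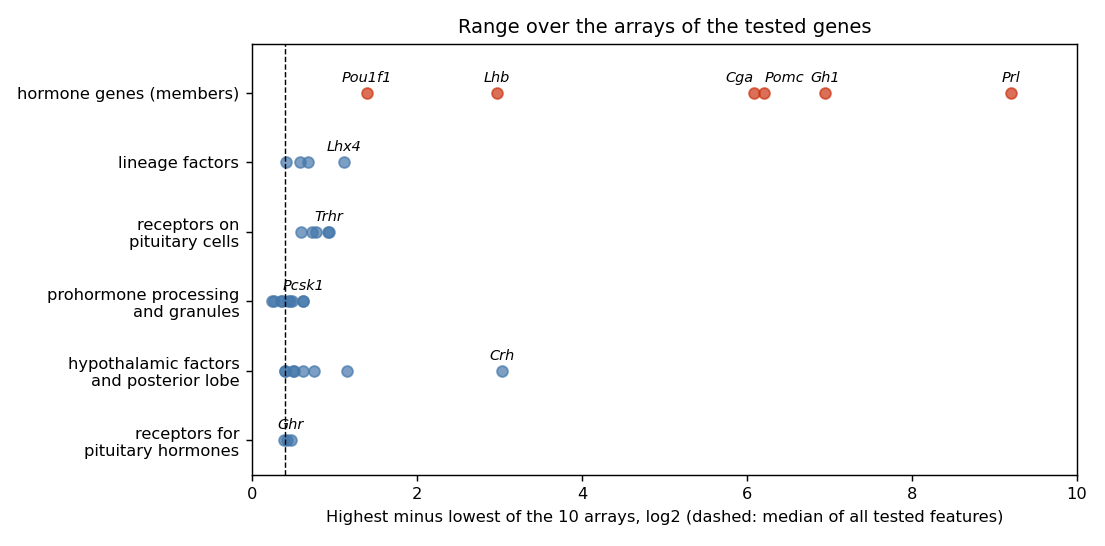
Highest minus lowest of the 10 arrays (x axis, log2) for each tested gene, with the 6 members in red and the 29 genes of the 5 other lists in blue (y axis, lists); the dashed line is the median of all 19271 features, 0.40. *Cga*, *Pomc*, *Gh1* and *Prl* lie between 6.08 and 9.20, *Lhb* at 2.97 and *Pou1f1* at 1.39, and the farthest gene of the other lists is *Crh* at 3.03.

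Summed markers of other cell types of the dissected tissue varied far less than the sum of the members. The members were chosen for their wide variation on these arrays, so this contrast is a description alone. The summed linear level of all 9 members ranged from 0.36 to 21.5 on naive arrays and from 1.08 to 26.2 on OUM arrays, a 73.5-fold range. The brightest members weigh most in this sum, and not every member varied so much. *Pou1f1* ranged 2.62-fold and *Fshb* 3.53-fold, the latter with arrays not well above background. The summed level of satellite glia markers ranged 1.39-fold, of Schwann cells and peripheral myelin 1.34-fold, of meninges and fibroblasts 1.58-fold and of skeletal muscle 1.92-fold. *Kcnj10* of the satellite glia and *Myh1* and *Myh4* of the muscle markers were not well above background on all arrays. The muscle sum was low, from 0.09 to 0.18. Oligodendrocyte markers (*Mog*, *Opalin*, *Mobp* and *Hapln2*), which belong to central nervous tissue, were well above background on all arrays for all 4 genes and ranged 2.66-fold, from 4.67 on naive 2 to 12.5 on OUM 4, with 4.67 to 10.2 on naive and 7.15 to 12.5 on OUM arrays. Naive 2, the array lowest in the members, was thus also the lowest in oligodendrocyte markers, but OUM 1, high in the members, stood at 7.15. The part of neighbouring tissue in the members' levels was not tested.

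Of the 10 genes nearest to the mean centred profile of the 5 members well above background throughout, among 11980 with a symbol, 9 are given here: *Defb1* (root-mean-square distance 1.06), *Tm4sf19* (1.09), *Kcnj4* (1.19), *Hus1b* (1.20), *Dlk1* (1.21), *Prrc1* (1.21), *Rnase1* (1.22), *Plekhh2* (1.23) and *Sgk2* (1.23), against a median of 1.49 over all candidates. Of these, *Defb1*, *Tm4sf19*, *Hus1b*, *Dlk1*, *Rnase1* and *Plekhh2* were well above background on all OUM arrays but not on all naive arrays. Most features hardly varied (median range 0.40), so the median distance of 1.49 is near that of a flat gene. The members' profile ranged over 4.51, so the nearest genes followed it only in part. *Tm4sf19* was high on OUM 2 alone (-4.17), and *Hus1b* was higher on naive 4 (-5.99) than on naive 1 (-6.83). *Rnase1*, a secreted ribonuclease, was well above background on 2 naive arrays, had a measured range of 4.37 that includes arrays at background, and was high on naive 1, OUM 1, OUM 2 and OUM 4, at -2.92, -3.29, -4.11 and -3.26, and between -7.29 and -6.29 elsewhere. *Dlk1*, a membrane protein that somatotrophs are known to make, ranged over 1.22 and was highest on OUM 2 and lowest on naive 4. The same 10 genes were nearest when *Pou1f1* was left out of the profile, a check chosen after seeing the data.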

How the data were processed

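TG RNA of 5 naive and 5 OUM rats was measured on single-colour Agilent arrays, 1 per rat. The authors quantified the scans with Agilent Feature Extraction 10.7.1.1 (per the submitters' processing notes), and the deposited scanner files hold the processed intensity per spot, after background subtraction, with flags for outliers, saturation and spots well above background. The authors' value table holds linear signal, that intensity divided by a constant of each array, with column medians of 0.114 to 0.120. Dim signals are the least certain, and arrays give no depth; the number of arrays limits precision.

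From the scanner files, control spots and outlier spots were left out, log2 intensity was averaged per probe and the 75th percentile of the array was subtracted. Probe accessions were named through a RefSeq table (18438 of 30367 probes with 1 symbol), and the brightest probe stood for a gene. A feature entered the test if every array of either group had it well above background. Groups were compared with limma 3.58.1 in R 4.3.3, two-sided, with Benjamini-Hochberg adjustment at 0.05. Standard errors are from that fit unless stated otherwise. The methods' t-test, other scalings, quantile normalization, normexp (offset 50, on the median spot signal), other filters, the slide, the replicate number and each array left out were tried as alternatives. The fit was tested on simulated data. Figures were drawn with matplotlib 3.10.9.

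Members, lists and tests were chosen with earlier results of these data known. Every member is named, and of each list the genes past the threshold, or else the 2 with the largest difference and the 2 with the largest range, and the 10 genes nearest to the members' profile, 1 of which is not reported here. P-values measure the spread between rats, with 1 array each.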

Additional observations from a re-analysis of the deposited data

Results flagged for a closer look

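Within each group of 5 arrays, the highest or lowest array was compared with its nearest neighbour by Dixon's ratio at a critical value of 0.71, for the members, the named list genes and the nearest genes. Of 72 sets of 5 arrays, 6 held an array that stood apart. Chance gives about 1 in 20 for sets not chosen by their values, but these genes were chosen by their range, their difference or their likeness to the members, so the count cannot be read against that rate and each value below is a description. Among the members this was *Pomc* alone, whose level of 3.79 on naive 1 lay above the next naive array at -0.87. *Rnase1*, selected for a profile like that of the members, which is high on naive 1, and well above background on 2 naive arrays, stood apart on the same array, at -2.92 against -6.67 for the next. Among the nearest genes, *Tm4sf19* on OUM 2 was at -4.17 (next -6.14). Among the list genes, *Gata2* on OUM 1 was at -6.22 (next -5.92), *Sstr2* on naive 4 at -0.98 (next -1.18) and *Ghr* on naive 1 at -1.40 (next -1.64).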

How the results depend on the processing

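All 23 alternatives for the mean log2 difference over the 6 members tested kept its sign, from 0.68 (without naive 2) to 1.90 (without naive 1). They reuse the same arrays and members chosen on them, so the kept sign is a description and no test. With 1 array left out, the spread of the members' level ran from 2.02 to 4.05 among naive and from 2.96 to 3.47 among OUM arrays; on slide 2 alone the OUM spread was 1.42. *Prl* changed sign on slide 2 alone (-0.04) and *Pou1f1* on slide 1 alone (-0.02); *Gh1*, *Pomc*, *Cga* and *Lhb* did so under no alternative.

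The 2 features called by limma became 0 with median scaling, the 75th percentile of probes well above background on all arrays, quantile normalization, no filter on dim probes, the mean of the probes of a gene, the authors' value table, every probe tested on its own, the members' level as a covariate, or without naive array 1 and OUM arrays 1 and 2; 1 with an intensity trend and robust prior; 0 to 1 with 1 array left out; and 120 on slide 2 alone, where 1 naive rat stands against 2 OUM rats and is assumed to vary as they do, so that counts from that slide rest on 1 naive rat. The count stayed at 2 with only probes well above background on all 10 arrays, with outlier spots kept, with the slide as a block and on slide 1 alone. With normexp it was 3. The methods' t-test called 1584 at an unadjusted p under 0.05 and 0 after Benjamini-Hochberg adjustment. The count of list genes called, 0, became 1 on slide 2 alone (*Crh*) and 1 with the methods' t-test unadjusted (*Gata2*), and was 0 under the other 27 alternatives. The cause of these changes was not tested.

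The replicate numbers were fitted as a replicate block, with 0 features called and a mean member difference of 1.23. Same-numbered arrays correlated at -0.09 to 0.33, and 1 OUM array correlated best with its own number. No pairing by number was seen, although this check cannot exclude one. Signals of *Tshb*, *Fshb* and *Ghrhr* at or near background limit what their differences can show.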
